A study of Mus musculus with 7 samples.

Results

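The mast cell genes described here are 9 genes out of 49164 gene rows with counts, taken from the table by their names: Cpa3, Mcpt4, Cma1, Tpsb2, Tpsab1, Fcer1a, Ms4a2, Kit and Hdc. They were measured by sequencing of polyadenylated RNA in soft tissue beside a 1.5-mm drill hole in the mouse mandible, collected on day 5 after the injury. The IL17KO group had 3 libraries, from mice that the labels also write as Il17af-/-, without the cytokine genes Il17a and Il17f. The WT group had 4 libraries from littermates, with the same hole and the same day of collection. All mice were kept free of specific pathogens. The labels used here give neither strain nor age and do not tie each library to a separate animal, so a p-value weighs a difference against a spread that may be technical. The comparison asks how tissue without interleukins 17A and 17F differs from WT tissue.

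Mast cells are tissue-resident immune cells that store preformed mediators in granules and release them after an injury or when IgE on their surface is crosslinked. The granules of connective tissue mast cells hold heparin, histamine and proteases of the carboxypeptidase, chymase and tryptase families. Their survival needs the receptor KIT, and their IgE receptor is built from an alpha chain, a beta chain and a shared gamma chain. Those of muscle and other connective tissue sit mostly along small vessels and nerves.

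Total counts ran from 24575664 to 25814761 per library in IL17KO and from 18539904 to 26271176 in WT. A count of 3 therefore corresponded to 0.118 to 0.133 CPM (read counts scaled to a common library size) in IL17KO and to 0.111 to 0.162 CPM in WT. Il17a had 0 counts in all 7 libraries, and Il17f had 1, 1 and 0 counts in IL17KO replicates 1 to 3 and 0 in all WT libraries, so these genes cannot check the genotype labels. The labelled tissue is muscle and soft callus, and 25 contractile genes of skeletal muscle summed to 40700 to 121400 CPM in IL17KO and to 20810 to 65140 CPM in WT. IL17KO replicate 3 and WT replicate 3 stood apart from the others. The mean log2 CPM of the muscle list was 1.18 above the WT mean in IL17KO replicate 3 and at its lowest in WT replicate 3. The 8 markers of fibroblasts and matrix summed to 22770 to 47450 CPM in IL17KO and to 27960 to 48520 CPM in WT. Most of that sum was collagen, and it does not show Thy1, which is in the list. Thy1 was at 93.0 ± 19.3 CPM in IL17KO and 243 ± 43.8 CPM in WT (SD, n = 3 and 4). It was called lower in IL17KO (edgeR adjusted p = 0.046), as were 0.0779% of all tested genes.

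Among the 9 genes, Cpa3, Mcpt4, Cma1 and Tpsb2 are the granule protease genes with enough counts to be tested. These 4 had higher mean levels in IL17KO (1.005 to 1.25 CPM) than in WT (0.316 to 0.709 CPM). Kit had nearly equal means and Hdc a lower mean in IL17KO. None of the differences passed the test over all genes. The other 3 genes, the further granule protease gene Tpsab1 and the receptor genes Fcer1a and Ms4a2, had at most 5 counts in any library. In bulk tissue, the number of mast cells and the amount of RNA per mast cell cannot be told apart.

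Sequences before the start sites of 7 of the 9 genes are in the RefSeq promoter table of build GRCm38.p6. They are shown for the 5 measurable members in it because Cpa3, Mcpt4 and Cma1 were at their highest in IL17KO replicate 3, the library where Kit and Hdc were at their lowest. Each runs from 250 bases before the start site to 50 bases from it on. Capitals mark matches to GATAA on either strand, a form of the site bound by GATA factors. The regions are chr3:20242132-20242431 (minus strand) for Cpa3, chr14:56062261-56062560 (minus strand) for Mcpt4, chr14:55944626-55944925 (minus strand) for Cma1, chr5:75574737-75575036 (plus strand) for Kit and chr2:126618629-126618928 (minus strand) for Hdc.
Cpa3: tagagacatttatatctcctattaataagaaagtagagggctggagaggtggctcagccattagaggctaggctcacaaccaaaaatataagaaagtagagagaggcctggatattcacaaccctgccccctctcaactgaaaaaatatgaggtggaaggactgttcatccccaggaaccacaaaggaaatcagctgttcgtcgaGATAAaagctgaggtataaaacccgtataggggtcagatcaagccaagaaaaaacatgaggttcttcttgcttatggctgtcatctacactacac
Mcpt4: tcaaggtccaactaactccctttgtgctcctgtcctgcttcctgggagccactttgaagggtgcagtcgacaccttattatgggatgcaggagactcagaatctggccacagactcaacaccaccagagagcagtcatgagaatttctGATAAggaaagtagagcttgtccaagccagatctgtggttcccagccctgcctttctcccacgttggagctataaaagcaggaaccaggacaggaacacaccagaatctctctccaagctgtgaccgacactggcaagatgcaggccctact
Cma1: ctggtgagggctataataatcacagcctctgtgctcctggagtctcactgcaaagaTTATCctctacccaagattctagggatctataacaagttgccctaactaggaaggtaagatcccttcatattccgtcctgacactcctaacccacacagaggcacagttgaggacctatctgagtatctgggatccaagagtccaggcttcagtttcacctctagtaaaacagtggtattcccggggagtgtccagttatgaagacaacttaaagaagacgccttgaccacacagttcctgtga
Kit: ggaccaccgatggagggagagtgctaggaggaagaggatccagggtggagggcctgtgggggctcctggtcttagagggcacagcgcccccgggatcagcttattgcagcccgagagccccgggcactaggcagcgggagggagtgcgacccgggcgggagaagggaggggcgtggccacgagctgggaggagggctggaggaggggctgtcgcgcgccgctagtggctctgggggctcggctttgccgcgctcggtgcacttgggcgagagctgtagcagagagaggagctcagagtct
Hdc: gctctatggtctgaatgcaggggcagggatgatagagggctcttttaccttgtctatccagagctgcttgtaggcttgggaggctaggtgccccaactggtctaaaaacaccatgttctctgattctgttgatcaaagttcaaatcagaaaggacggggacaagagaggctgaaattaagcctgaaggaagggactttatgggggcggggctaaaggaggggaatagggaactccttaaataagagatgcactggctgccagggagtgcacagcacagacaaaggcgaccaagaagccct

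The promoters of Cpa3, Mcpt4 and Cma1 each held 1 match to GATAA, whose first base on the printed strand lay at −45, −102 and −194 from the start site. Fcer1a also held 1 match and Ms4a2 held 3. No match to GATAA was found in the Kit and Hdc windows. The related GATAG was not searched for. Among the printed letters it occurs in the Hdc window on both strands and in the Cma1 window on the strand opposite to the printed one. Of 32851 promoters of this length in the table, 25.4% held at least 1 match. TATAAA on the sense strand was at −31 in Cpa3, −32 in Mcpt4 and −125 in Fcer1a, and 8.32% of all promoters held it. The motif CANNTG, an E-box, was found in the Cpa3, Cma1, Fcer1a, Kit and Hdc windows and in 72.3% of all promoters. A match is a description of these letters and not a bound site.

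Cpa3 (ENSMUSG00000001865) encodes carboxypeptidase A3, a heparin-bound exopeptidase of the granule. It stood at 0.654, 0.587 and 1.86 CPM in IL17KO replicates 1 to 3, against 0.505, 0.540, 0.863 and 0.556 CPM in WT replicates 1 to 4. IL17KO replicate 3 was the highest of the 7 libraries, and WT replicate 3 was above both other IL17KO libraries. The means were 1.03 ± 0.718 CPM in IL17KO and 0.616 ± 0.166 CPM in WT (SD, n = 3 and 4).

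Mcpt4 (ENSMUSG00000061068) encodes the chymase of connective tissue mast cells in the mouse. It stood at 0.654, 0.587 and 1.77 CPM in IL17KO replicates 1 to 3, against 0.138, 0.270, 0.336 and 0.519 CPM in WT replicates 1 to 4. Every IL17KO library was above every WT library, by 0.587 against 0.519 CPM at the closest. Among the 9 genes no other had groups that did not overlap. Of all tested genes 3.89% did not overlap, 1.95% with IL17KO higher. These levels rest on 16, 15 and 40 counts in IL17KO and on 3, 5, 7 and 14 counts in WT. Mcpt4 entered the test through IL17KO, where 3 of 3 libraries reached the 0.407 CPM that the low-count filter asks for, against 1 of 4 in WT.

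Cma1 (ENSMUSG00000022225) encodes chymase 1, known in the mouse as mast cell protease 5, an enzyme with elastase-like activity. Its levels were 0.817, 0.509 and 2.13 CPM in IL17KO replicates 1 to 3, against 0.413, 0.270, 0.959 and 0.593 CPM in WT replicates 1 to 4. The groups overlapped, with IL17KO replicate 2 below WT replicates 3 and 4. Tpsb2 (ENSMUSG00000033825) encodes tryptase beta 2, a protease that forms tetramers on heparin. It had 1.10, 0.783 and 1.86 CPM in IL17KO replicates 1 to 3, against 0.597, 0.432, 1.10 and 0.704 CPM in WT replicates 1 to 4. Its groups overlapped through WT replicate 3 alone.

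**Figure D1:**
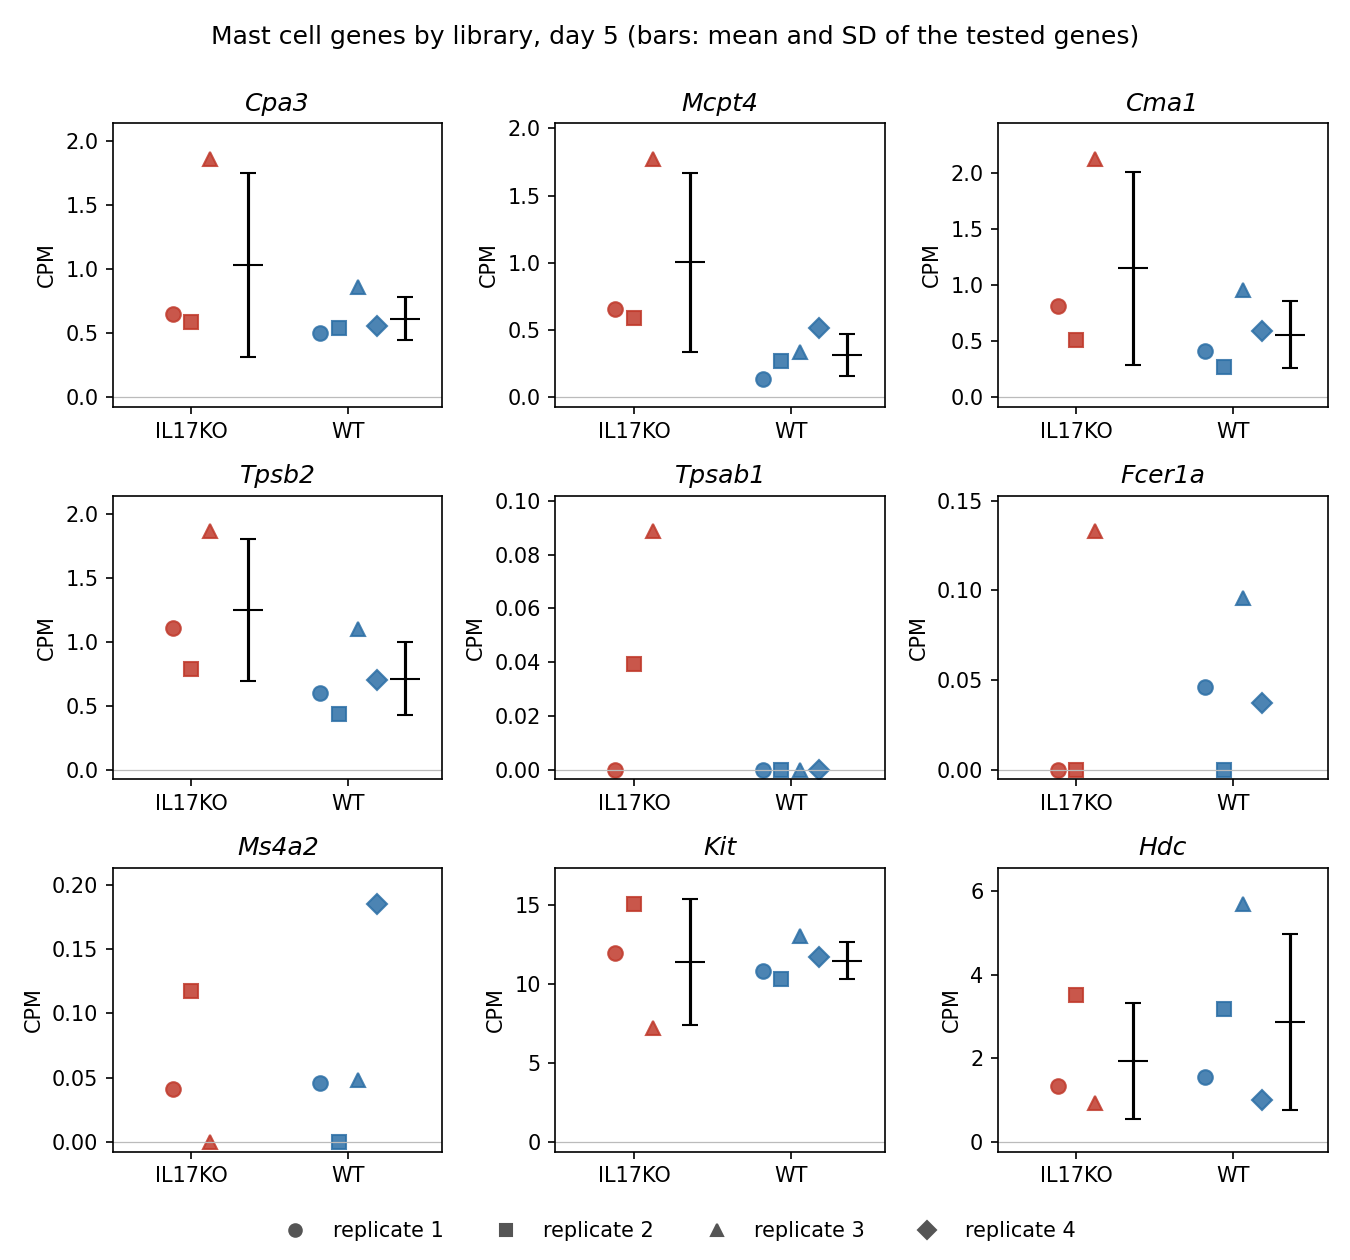
Level of each of the 9 mast cell genes in CPM, with 1 point per library and the replicate number given by the marker, IL17KO left of WT. Black bars give the mean and SD of the 6 tested genes (3 IL17KO and 4 WT libraries). IL17KO replicate 3 is the highest library for Cpa3, Mcpt4, Cma1 and Tpsb2 and the lowest for Kit and Hdc.

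By edgeR 0 of the 6 tested genes passed an adjusted p under 0.05, where 0.156% of all 15399 tested genes did, 0.0779% higher and 0.0779% lower in IL17KO. At an unadjusted p under 0.05 there was 1 of 6, Mcpt4, where 3.04% of all tested genes passed, 1.38% higher and 1.66% lower in IL17KO. Mcpt4 had a log2 fold change of 1.61 ± 0.53 (SE) with a 95% interval of 0.41 to 2.80 (edgeR unadjusted p = 0.0143, adjusted p = 0.988). Cma1 had 1.01 ± 0.55, with an interval of −0.24 to 2.27. Tpsb2 had 0.80 ± 0.40, with an interval of −0.10 to 1.70, and Cpa3 had 0.73 ± 0.45, with an interval of −0.30 to 1.76. The edgeR adjusted p of these 3 genes was 0.988 as well. The intervals of Cma1, Tpsb2 and Cpa3 hold both no difference and a rise beyond 1.5 on the log2 scale. With DESeq2 0 members passed the adjusted threshold (0.162% of all tested genes were higher) and 1 was higher at an unadjusted p under 0.05 (1.29% of all). With limma voom 0 passed (0.149% of all were higher) and 2 were higher at an unadjusted p under 0.05 (4.19% of all). That run weighted each library by quality, at 5.31, 0.624 and 0.487 in IL17KO replicates 1 to 3. Its IL17KO side therefore rested mostly on replicate 1. At an adjusted edgeR p under 0.10 the members' number was still 0, beside 0.104% of all tested genes that were higher.

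The size of the protease differences rested on IL17KO replicate 3. Without it the log2 fold changes were 0.01 for Cpa3, 0.22 for Cma1, 0.39 for Tpsb2 and 0.92 for Mcpt4. Without WT replicate 3 they were 0.92, 1.36, 1.06 and 1.61, in the same gene order. With the muscle level as a covariate they were 0.51, 0.78, 0.75 and 1.16. IL17KO replicate 3 had the highest muscle level of the 7 libraries, and the part of that level in the protease values was not tested beyond this covariate.

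**Figure D2:**
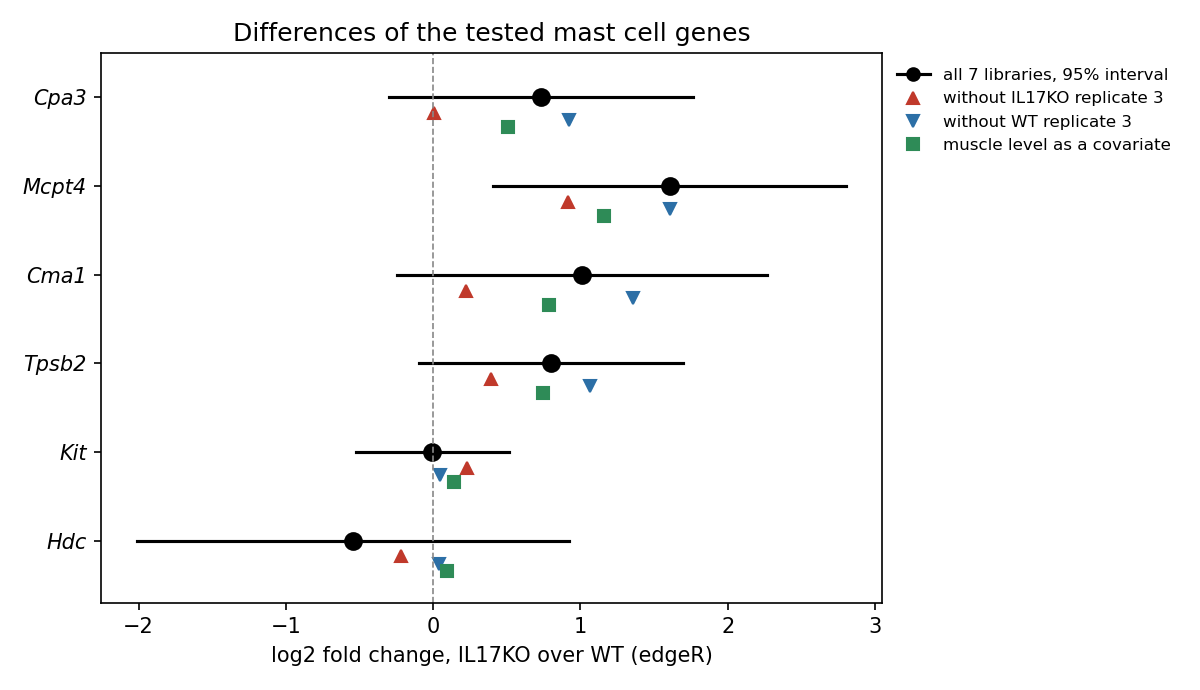
Log2 fold change of the 6 tested mast cell genes by edgeR, IL17KO over WT, with its 95% interval, and the same value without IL17KO replicate 3, without WT replicate 3 and with the muscle level as a covariate. The 4 proteases lie above 0 with all libraries, and without IL17KO replicate 3 Cpa3 is at 0.01 and Cma1 at 0.22.

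Summed, the 4 proteases had 3.23, 2.47 and 7.63 CPM in IL17KO replicates 1 to 3, against 1.65, 1.51, 3.26 and 2.37 CPM in WT replicates 1 to 4. The sum was highest in IL17KO replicate 3 and next in WT replicate 3, close to IL17KO replicate 1, so the groups overlapped. The mean sum was 4.44 ± 2.78 CPM in IL17KO and 2.20 ± 0.801 CPM in WT (SD, n = 3 and 4), a ratio of 2.02. With IL17KO replicates 1 and 2 alone the ratio was 1.30. Mcpt4 made up 20.3%, 23.8% and 23.3% of the protease counts in IL17KO replicates 1 to 3, against 8.33%, 17.9%, 10.3% and 21.9% in WT replicates 1 to 4. The exact 95% binomial interval was 17.2% to 30.3% in IL17KO replicate 3, the library with the most protease counts (172). It was 4.24% to 20.1% in WT replicate 3 (68 counts). The 2 intervals overlap, but an overlap is not a test of the difference between these libraries, and none was run.

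Tpsab1 (ENSMUSG00000024173), the tryptase known in the mouse as mast cell protease 7, had 0, 1 and 2 counts in IL17KO replicates 1 to 3 and 0 counts in all 4 WT libraries. Each of these counts was at or under the floor of 3, so no fold change is given. RefSeq lists the gene in the reference strain as a transcribed pseudogene, and GENCODE lists it as protein-coding. The Tpsb2 and Tpsab1 transcripts were 78.2% identical over 32.0% of the Tpsb2 transcript. No member had a copy that was at least 95% identical over 80% of its length, and the nearest to Mcpt4 was Cma2, with 85.3% identity over 82.3%.

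The receptor genes were on both ends of the range. Fcer1a (ENSMUSG00000005339), the IgE-binding alpha chain, had 0, 0 and 3 counts in IL17KO replicates 1 to 3, against 1, 0, 2 and 1 in WT replicates 1 to 4. Ms4a2 (ENSMUSG00000024680), the signal-amplifying beta chain, had 1, 3 and 0 counts in IL17KO, against 1, 0, 1 and 5 in WT. Neither gene passed the low-count filter, and neither difference is detectable at this depth. Fcer1g, the gamma chain that macrophages and other myeloid cells share, was at 101, 110 and 93.8 CPM in IL17KO replicates 1 to 3 and at 91.5, 129, 149 and 103 CPM in WT replicates 1 to 4.

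Kit (ENSMUSG00000005672), the receptor for stem cell factor, had 11.9, 15.1 and 7.18 CPM in IL17KO replicates 1 to 3, against 10.8, 10.3, 13.0 and 11.7 CPM in WT replicates 1 to 4. The lowest and the highest library were both IL17KO, and the WT libraries lay between them. The means were 11.4 ± 3.97 CPM in IL17KO and 11.45 ± 1.18 CPM in WT (SD, n = 3 and 4). The log2 fold change was −0.01 ± 0.23, with a 95% interval of −0.52 to 0.51 (edgeR adjusted p = 0.9997). Kit also marks melanocytes and blood progenitors. Of 6 melanocyte markers 1, Sox10, was tested, which Schwann cells also express, while Dct, Tyrp1, Tyr and Mlana had at most 4 counts in any library. Pmel, a pigment granule gene, had 10, 9 and 7 counts in IL17KO replicates 1 to 3, against 8, 6, 6 and 6 in WT replicates 1 to 4. The melanocyte list summed to 3.15 to 3.84 CPM in IL17KO and to 2.68 to 5.37 CPM in WT. The progenitor list, led by Cd34, which vessels also express, summed to 149 to 169 CPM in IL17KO and to 150 to 180 CPM in WT. The part of these cells in the Kit level was not tested.

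Hdc (ENSMUSG00000027360) encodes histidine decarboxylase, the enzyme that makes histamine in mast cells, basophils and some neutrophils and macrophages. It stood at 1.35, 3.52 and 0.931 CPM in IL17KO replicates 1 to 3, against 1.56, 3.19, 5.70 and 1.001 CPM in WT replicates 1 to 4. Both groups held libraries near 1 CPM and above 3 CPM. The means were 1.93 ± 1.39 CPM in IL17KO and 2.86 ± 2.11 CPM in WT (SD, n = 3 and 4). The log2 fold change was −0.54 ± 0.64, with a 95% interval of −2.01 to 0.93 (edgeR adjusted p = 0.988). Without WT replicate 3 the log2 fold change was 0.04, and with the muscle level as a covariate it was 0.09.

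Neutrophil markers also had their highest level in WT replicate 3. The 12 genes of that list summed to 50.4, 108 and 53.0 CPM in IL17KO replicates 1 to 3, against 82.6, 141, 317 and 109 CPM in WT replicates 1 to 4. For the list as for Hdc, IL17KO replicate 2 was the highest of its group and WT replicates 3 and 2 were the highest of theirs. Of 7 tested neutrophil genes all 7 had negative log2 fold changes, 4 of them at an unadjusted p under 0.05, where 1.66% of all tested genes were lower, and 0 past the adjusted threshold by edgeR. With the muscle level as a covariate all 7 were still negative, and 1, Stfa2l1, had an unadjusted p under 0.05. By that fit 1.96% of all tested genes were lower at this threshold. Stfa2l1, a stefin of neutrophils, had a log2 fold change of −1.94 ± 0.59. Its groups did not overlap, where 1.94% of all tested genes were lower without overlap. It had 2, 7 and 6 counts in IL17KO replicates 1 to 3, against 10, 20, 28 and 11 in WT replicates 1 to 4. It entered the test through WT, the group where it is high. Mmp9, the gelatinase of neutrophil granules, which macrophages also express, had 21.1, 47.0 and 24.3 CPM in IL17KO replicates 1 to 3, against 41.4, 64.9, 214.7 and 49.4 CPM in WT replicates 1 to 4. It was the largest part of the list's sum in each library and most of that sum in WT replicate 3. S100a9, a calcium-binding protein of neutrophils and monocytes, had −1.34 ± 0.54. Among the granule genes of the list, Camp had 3, 5 and 16 counts in IL17KO and 3, 5, 3 and 1 counts in WT, and Ngp had at most 3 counts in any library. Ly6g, a surface marker, had at most 1 count. The part of neutrophils in the Hdc level was not tested.

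Per kilobase of exons, Kit and the proteases were closer than their CPM values. The mean level per kilobase was 1.28 CPM in IL17KO and 1.29 CPM in WT for Kit. It was 1.06 and 0.513 CPM for Cma1, 0.907 and 0.285 CPM for Mcpt4, 0.784 and 0.445 CPM for Tpsb2 and 0.682 and 0.406 CPM for Cpa3, each with IL17KO first and WT after it. Hdc stood at 0.303 CPM per kilobase in IL17KO and 0.448 in WT. The lengths were unions of all annotated exons, 8911 bases for Kit and 6389 for Hdc, against 1090 to 1594 for the 4 proteases. For Kit and Hdc they include transcripts with retained introns, which lowers their level per kilobase. By these lengths all 4 proteases were above Kit in IL17KO replicate 3, and in the other 6 libraries none was. The order of Kit and Hdc against the proteases depends on the length used. The order among the 4 proteases changed between libraries, and neighbours in their order by group mean differed by less than the larger of their SDs. Kit was above the next gene by more than either SD in WT and by less than the larger SD in IL17KO.

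Across the 7 libraries Cpa3, Cma1 and Tpsb2 were closest to each other in pattern. After each gene was centred on its own mean log2 CPM, Cma1 and Tpsb2 differed by a root mean square of 0.24, Cpa3 and Tpsb2 by 0.28 and Cpa3 and Cma1 by 0.35. Mcpt4 differed from these 3 proteases by 0.53 to 0.56. Kit differed from the proteases by 0.76 to 1.07 and from Hdc by 0.75, and Hdc differed from the proteases by 1.17 to 1.52. In IL17KO replicate 3 the centred values were between 1.04 and 1.71 for the 4 proteases, −0.63 for Kit and −1.04 for Hdc. In WT replicate 3 they were 0.24, −0.43, 0.45 and 0.33 for Cpa3, Mcpt4, Cma1 and Tpsb2, against 0.21 for Kit and 1.46 for Hdc.

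**Figure D3:**
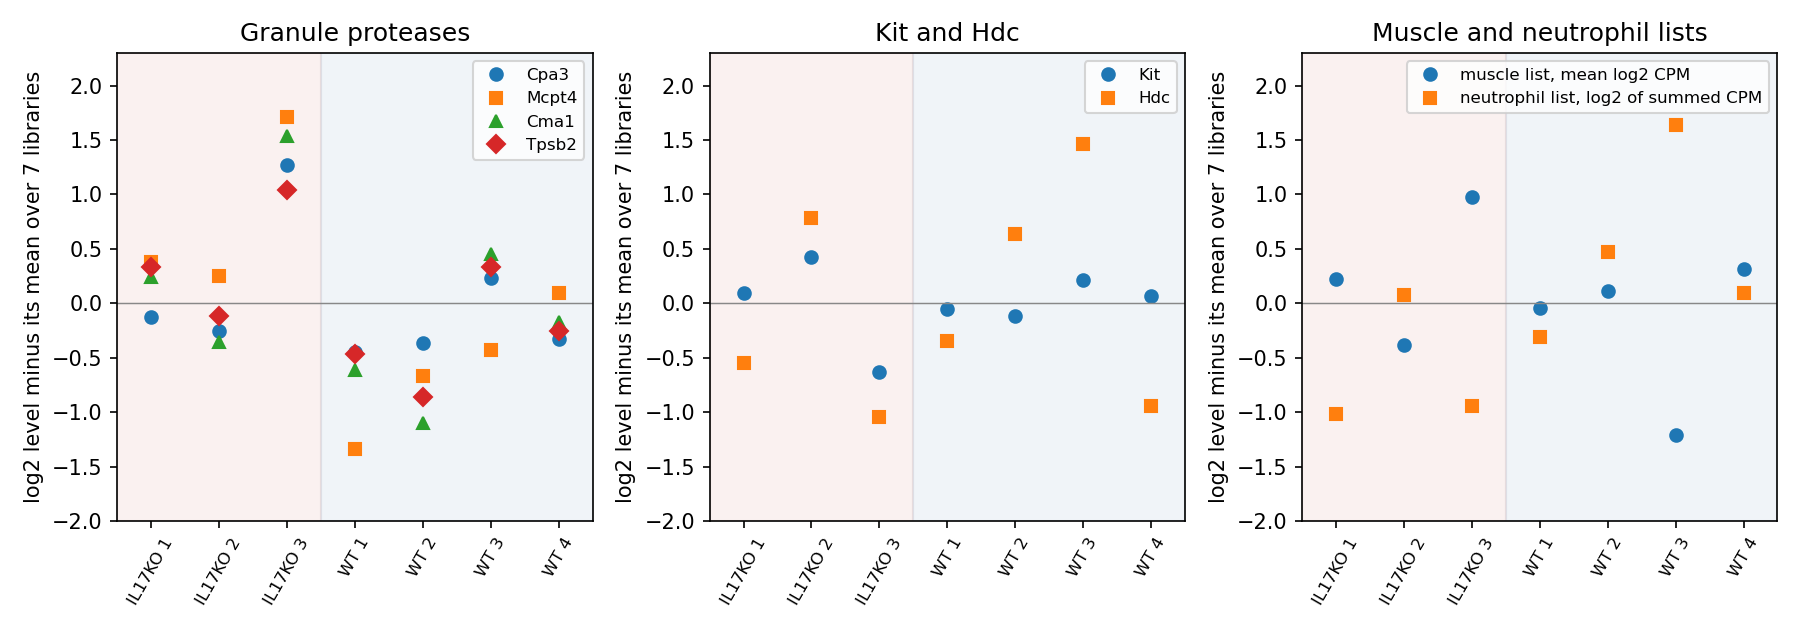
Log2 level of each gene or list minus its own mean over the 7 libraries, for the 4 tested granule proteases (left), Kit and Hdc (middle) and the muscle and neutrophil lists (right). IL17KO libraries are on red and WT libraries on blue ground. In IL17KO replicate 3 the proteases and the muscle list are high and Kit, Hdc and the neutrophil list are low, and in WT replicate 3 Hdc and the neutrophil list are at their highest.

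The genes most like the members in pattern were sought among 12910 tested genes whose mean log2 CPM reached 0. The members at that level are Kit and Hdc, and the closest to their mean profile over 7 libraries were Nt5e, Syn1, Timp1, Cdca5, Fbn2, Tmem97, Prr7 and Itgb3, with root mean square differences of 0.12 to 0.18. These are closer to the mean of Kit and Hdc than Kit and Hdc are themselves, at 0.38. The mean profile of the 4 proteases was added after the values were seen. The closest genes to it were Oaz1-ps at 0.33, Cd163, a scavenger receptor of resident macrophages, and Prkcz at 0.34 each, and Selenbp1 at 0.35. Cd163 had 25.2, 18.5 and 27.3 CPM in IL17KO replicates 1 to 3, against 11.6, 8.42, 15.7 and 14.4 CPM in WT replicates 1 to 4. The list of 10 monocyte and macrophage markers that holds Cd163 went both ways. It had 4 positive and 6 negative log2 fold changes, with a median of −0.21, and 0 passed the adjusted threshold by edgeR.

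Other genes of mast cells gave no call either. Of 7 further mast cell proteases found in the table, Mcpt1 and Mcpt2, which mark mucosal mast cells, and Mcpt9 had 0 counts in all 7 libraries. Cma2, Tpsg1 and Ctsg had at most 3 counts, and Gzmb, which cytotoxic lymphocytes also express, was tested at a log2 fold change of −1.03 ± 0.56. Among 10 surface and lineage markers, 6 were tested, of which 1 had a positive and 5 a negative log2 fold change, and 0 passed. Some of the tested markers were far above the proteases, such as Cd63 at 472 CPM in IL17KO and 452 CPM in WT. Tmem176b was at 101 CPM in both groups. The part of mast cells in these levels was not tested. Il1rl1, the receptor for interleukin 33, was at 28.3 ± 8.62 CPM in IL17KO and 42.0 ± 14.9 CPM in WT (SD, n = 3 and 4). Mrgprb2, a receptor of connective tissue mast cells, had at most 2 counts in any library. Cd200r3, a receptor of mast cells and basophils, had 7, 10 and 3 counts in IL17KO replicates 1 to 3, against 1, 2, 2 and 3 counts in WT replicates 1 to 4. On the CPM scale its groups did not overlap, at 0.286, 0.392 and 0.133 CPM in IL17KO and 0.0459, 0.108, 0.0959 and 0.111 CPM in WT. Of all tested genes 1.95% were higher without overlap. At the closest, IL17KO replicate 3 and WT replicate 4 both had 3 counts and were set apart only by library scaling. Cd200r3 did not pass the low-count filter and was named after its values were seen.

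Of 9 tested transcription factors of the lineage 3 had positive and 6 negative log2 fold changes, with a median of −0.06, against a median of 0.00 over all tested genes, and 0 passed. With the muscle level as a covariate 5 were positive and 4 negative. Some were far above the proteases, such as Runx1 at 180 CPM in IL17KO and 181 CPM in WT, and the part of mast cells in their levels was not tested. Gata2, needed for mast cell identity, had 8.54, 10.5 and 9.27 CPM in IL17KO replicates 1 to 3, against 8.64, 8.69, 8.05 and 8.97 CPM in WT replicates 1 to 4. Its log2 fold change was 0.14 ± 0.13. Mitf, which drives Kit and granule genes in the mouse, had 0.10 ± 0.13, and Gata1 had at most 2 counts in any library. In the granule and amine list 2 of 6 tested genes were positive and 4 negative. Srgn, the proteoglycan core that binds granule proteases and is also expressed by other leukocytes, had −0.30 ± 0.27. Slc18a2, which loads histamine into granules, had at most 3 counts in any library.

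Genes of IgE receptor signalling had 1 positive and 16 negative log2 fold changes among 17 tested, with a median of −0.16, and 0 passed the adjusted or the unadjusted threshold. Over all tested genes 50.6% were positive. With the muscle level as a covariate 6 were positive and 11 negative, with a median of −0.03, where 51.5% of all tested genes were positive. Most genes of this list are shared with other leukocytes, and the summed level was 806 to 1016 CPM in IL17KO and 868 to 1187 CPM in WT. Lcp2, an adaptor of the pathway, was at 27.8, 42.0 and 24.8 CPM in IL17KO replicates 1 to 3, against 36.9, 38.3, 61.1 and 42.5 CPM in WT replicates 1 to 4. Its log2 fold change was −0.50 ± 0.23. In eicosanoid synthesis 4 of 6 tested genes were positive, among them Alox5, the 5-lipoxygenase, at 0.43 ± 0.21, and 0 passed. With the muscle covariate all 6 were positive.

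Among growth factors and cytokines that act on mast cells, 2 of 7 tested genes were positive and 5 negative, and 0 passed the adjusted threshold. With the muscle level as a covariate 4 were positive and 3 negative. Il33, an alarmin released by damaged stromal cells that activates mast cells, was at 18.2, 17.7 and 26.3 CPM in IL17KO replicates 1 to 3, against 26.8, 32.8, 35.0 and 31.4 CPM in WT replicates 1 to 4. Every IL17KO library was below every WT library, where 1.94% of all tested genes were lower without overlap. The log2 fold change was −0.60 ± 0.17 (edgeR unadjusted p = 0.006, adjusted p = 0.988). Kitl, the stem cell factor that binds KIT, was at 45.8 ± 5.23 CPM in IL17KO and 41.3 ± 5.59 CPM in WT (SD, n = 3 and 4), with a log2 fold change of 0.15 ± 0.14. Il3 and Il9 had 0 counts in all 7 libraries, and Il4 at most 1. Of the receptors and protease targets 1 of 5 tested was positive, and the histamine receptor Hrh2 had a log2 fold change of −0.59 ± 0.48.

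Markers of neighbouring granulocytes were low. Of 7 basophil markers 2 were tested, Itga2 and Il3ra, both shared with other cells, and Mcpt8, the basophil protease, had 13, 8 and 4 counts in IL17KO replicates 1 to 3 and 8, 7, 11 and 8 counts in WT replicates 1 to 4. Of 8 eosinophil markers 3 were tested, all with negative log2 fold changes between −0.74 and −0.21, and 0 passed. Epx, the eosinophil peroxidase, had at most 1 count in any library.

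**Figure D4:**
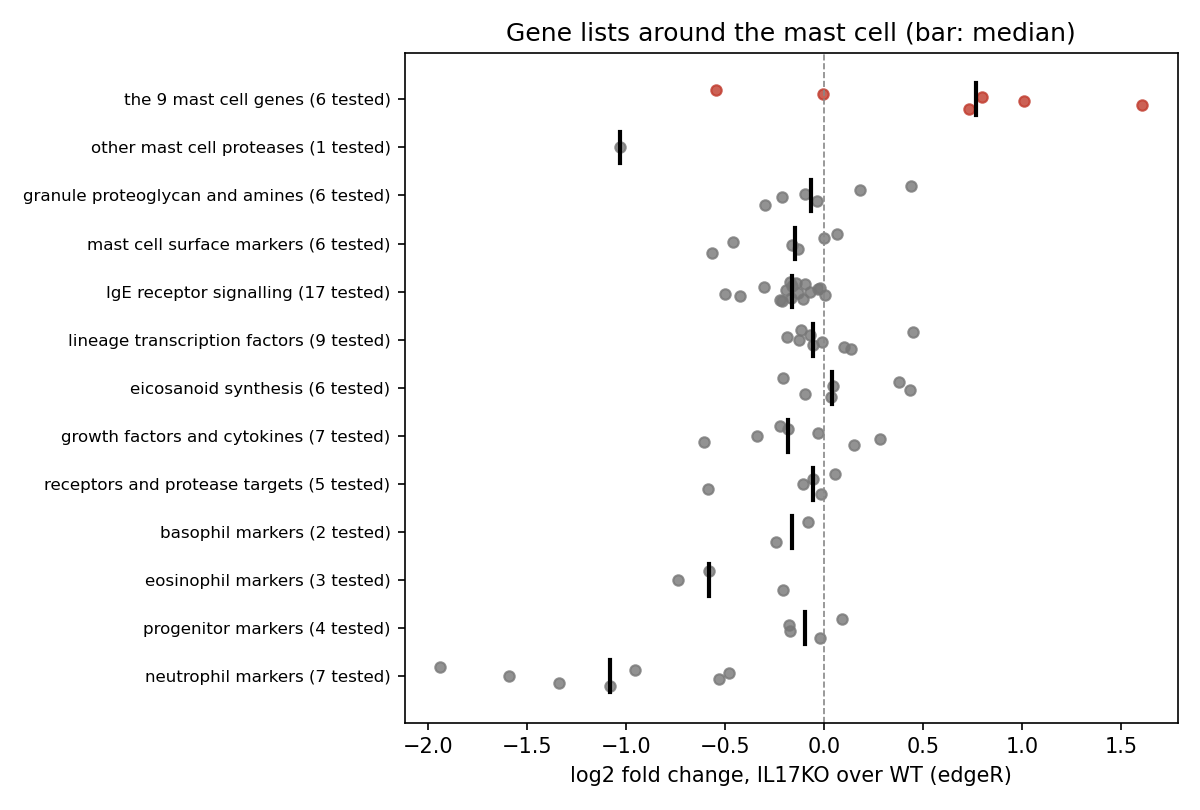
Log2 fold change by edgeR, IL17KO over WT, of each tested gene in the 9 mast cell genes (red) and in 12 related gene lists (grey), with the list median as a black bar. The medians are 0.77 for the mast cell genes, of which Mcpt4 entered the test through IL17KO, −0.16 for IgE receptor signalling and −1.08 for neutrophil markers. Among the neutrophil markers Stfa2l1 entered the test through WT.

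Over the 6 tested members the median log2 fold change was 0.77, with 4 positive and 2 negative, beside a median of 0.00 over all tested genes. Since Mcpt4 passed the filter through the group where it is high, this median is a description. With no filter, all 9 members had a fit, 0 passed (0.0738% of all genes were then called higher) and the median was 0.74.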

How the data were processed

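Per the file headers, the deposited table gives each gene's raw read counts and its normalized signal in 7 libraries. The submitters' processing notes list TopHat, HTSeq, DESeq2, cutadapt, FastQC and bcl2fastq, with GRCm39 as the build, and no version or setting is stated here. The kit was stranded, per the labels, and use of strand in counting is not stated. The deposited signal equals counts over a single size factor for each library and covers 19754 rows. Of 55414 rows 6250 are blank. Columns were matched to samples by library name, which for WT and for IL17KO replicate 3 differs from the number in the titles used here.

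Counts were tested with edgeR 4.0.16 (R 4.3.3): quasi-likelihood F test, two-sided, TMM, filterByExpr, robust dispersion, Benjamini-Hochberg over 15399 genes, threshold 0.05. SE is the log2 fold change over the square root of F, and intervals use the moderated degrees of freedom. CPM use TMM-scaled library sizes. Floors of 3 counts and binomial intervals cover counting error only. Alternatives were DESeq2 1.42.0, limma 3.58.1 (voom with library quality weights, and trend on log2 signal plus 1) and RLE. Further ones were other filters, a replicate block, a muscle covariate and left-out libraries. The muscle covariate for the other lists was added after the data were seen. Exon lengths and BLAST used GENCODE's GRCm38 transcripts. The members, the gene lists and the tests were chosen with earlier results of these data known. The genes named were all members, up to 3 per list by smallest p and the 8 most like in pattern, with others of 4 mast cell lists given by level. Genes of other lists named beyond these, such as Fcer1g, Slc18a2, Mcpt8, Epx, Ly6g, Ngp, Camp, Cd34 and the melanocyte markers, were chosen after their values were seen. Not each gene that the rule takes is described. The fit was first tested on simulated data with known changes. No 2 libraries of a group agreed within sampling noise (mean chi-square between 23.1 and 241), so none was treated as a repeat of another. Each was counted as 1 replicate, though this check cannot show that the libraries came from separate animals.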

Additional observations from a re-analysis of the deposited data

Results flagged for a closer look

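Cpa3 in WT replicate 3 (0.863 CPM) stood far above the other 3 WT libraries, which lay between 0.505 and 0.556 CPM. The summed level of the receptors and protease targets was far lower in WT replicate 3 (76.1 CPM) than in the other WT libraries (100.3 to 105 CPM). Of 28 sets of 4 WT values examined 2 stood out in this way. Tpsab1, at 0 in all 4 WT libraries, could not stand out. Chance gives about 1 in 20 for a single set, but the sets share libraries and some share genes, so this rate does not weigh the 2 together.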

How the results depend on the processing

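No mast cell gene was called under any alternative run. Cpa3, Mcpt4, Cma1 and Tpsb2 kept a positive log2 fold change in each alternative that tested them, with ranges of 0.01 to 1.02, 0.92 to 1.99, 0.22 to 1.37 and 0.39 to 1.06. Kit was positive at 0.0011 without a filter, 0.079 with limma voom, 0.14 with the muscle covariate and 0.30 with IL17KO replicate 3 and WT replicate 3 both left out, and Hdc at 0.094 with the muscle covariate and 0.38 without those 2 libraries. With 1 library left out Kit ran from −0.26 to 0.23 and Hdc from −1.31 to 0.040 (without WT replicate 3). The median over tested members was −0.0031 with a filter of 1 CPM in 3 libraries, which left Tpsb2, Kit and Hdc, and it ran from 0.23 (without IL17KO replicate 3) to 1.03 with 1 library left out. The number of genes called over the whole table, 24, was 42 without a filter, 56 with DESeq2, 64 with limma voom, 2 with the replicate block and 8 to 21 with 1 library left out. The cause was not tested. With the replicate block the 4 proteases had log2 fold changes of 0.58, 1.94, 1.03 and 0.82 in the order above and 0 members were called. Same-numbered libraries share only a number: the correlations of their deviations from the group means were 0.14, −0.30 and −0.56, so the numbers do not pair them. Depth limits Tpsab1, Fcer1a and Ms4a2, at up to 5 counts per library.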
